A study of Xenopus laevis with 6 samples.

Results

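The RNA described here encodes the machinery that carries molecules into and out of the nucleus and the lamina that lines it, in Xenopus laevis embryos between 5 and 7.5 hours post fertilization (hpf). Its members were taken by name and a minimum mean value, with earlier results of these data known. The names were those of nucleoporins (nup followed by a digit, and tpr), importins (kpna, kpnb, and ipo followed by a digit) and exportins (xpo). Ran and its partners (ran, rcc1, ranbp), lamins (lmn) and the lamin B receptor (lbr) were also taken. Of 50489 rows in the table, called genes here, 96 carried such a name and 94 had a mean value of at least 12 over the 6 libraries. The 2 that did not were nup188.L, at 0 in all libraries, and tpr.L, with a mean of 9.5, while the lowest members inside were nup214.L row 1 (23.5) and lmnb2.S row 1 (29.3). The 94 stand for 54 gene symbols, since this tetraploid frog keeps an L and an S copy of many genes, and 9 of them are rows that repeat a name and are told apart here by a row number. Likewise, the 19149 genes tested, the background of the counts below, are rows and stand for 14045 symbols.

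Every embryo was wild type and received 5-ethynyl uridine (EU) as a 1-cell embryo, 10 nl of a 50 mM solution or about 0.5 mM in the egg. EU is a uridine analogue built into new RNA and was used to pull that RNA out before sequencing, so RNA captured at 7.5 hpf includes RNA made before 5 hpf. There were 3 groups of 2 libraries: embryos kept in the translation inhibitor cycloheximide (CHX, 0.2 mg/ml) and collected at 7.5 hpf, control embryos collected at 7.5 hpf, and control embryos collected at 5 hpf, when the treatment began. The labels call all of them blastulae from 1 experiment, raised at 22 °C, and the series' design gives a single clutch, so the p-values measure the spread between these libraries and not between clutches. Later controls were set against earlier ones, CHX embryos against controls of their own age, and CHX embryos against the 5 hpf controls. These 3 comparisons share libraries, so a shift in 1 group moves a pair of them.

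The nuclear pore is a ring of nucleoporins set in the nuclear envelope. Importins carry cargo inward through it and exportins carry cargo outward, and the small GTPase Ran sets the direction, because its exchange factor Rcc1 sits on chromatin and keeps Ran bound to GTP inside the nucleus. Lamins form a meshwork under the inner membrane. Frog eggs hold large stores of these proteins and of their mRNAs, which serve the fast cleavage divisions, and importin alpha and lamin levels are known to affect nuclear size in Xenopus embryos and egg extracts.

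Zygotic and oocyte markers were present, and a list expected to be absent was not wholly so. Transcripts of 34 zygotic blastula and gastrula genes, 33 of them in the table, summed to 54837 and 38952 under CHX, 97207 and 42099 in controls at 7.5 hpf, and 3143 and 2988 in controls at 5 hpf. Transcripts of 30 oocyte and egg genes, 25 of them in the table, summed to 23356 and 23396 under CHX, 22324 and 24494 in 7.5 hpf controls and 25953 and 25755 in 5 hpf controls, so RNA of genes stored in the egg was present in all captured samples. Between the controls, 2 of the 35 oocyte and egg rows tested were called higher, vegt.L and vegt.S (5.90% of all genes tested). Another 2, wee2.L and zar2.S, were called lower (0.715%). How much captured RNA was unlabelled was not tested. Of 31 rows for genes of differentiated tissues, expected to be absent in a blastula, 18 were at 0 in every library. The list summed to 461 and 436 under CHX, 215 and 85 in 7.5 hpf controls, and 37 and 11 in 5 hpf controls. Of its 5 rows tested, 2 were called higher between the controls, elavl3.L and ckm.L (5.90% of all genes tested). For CHX over control 5 hpf 4 were called higher, the same rows with tubb2b.L and myh6.S (5.75%). None was called for CHX over control at 7.5 hpf. The summed value of all genes ran from 6680033 to 7742693 per library, which does not give the number of reads. These are normalized values: the authors' scaling sets the typical gene to no change, so a change shared by most genes cannot be seen. In these whole-embryo samples fewer cells of a type and less RNA per cell cannot be told apart.

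The 94 nuclear pore, transport and lamina genes together summed to 66193 and 67746 under CHX, 62044 and 65692 in controls at 7.5 hpf and 66659 and 66821 in controls at 5 hpf. The lowest sum came from control 7.5 hpf replicate 1, the library in which the zygotic markers were highest. For some of the differences below, values without this library are given. As a share of all values the set was 0.912% and 0.958% under CHX, 0.801% and 0.923% in 7.5 hpf controls and 0.998% and 0.984% in 5 hpf controls.

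**Figure D1:**
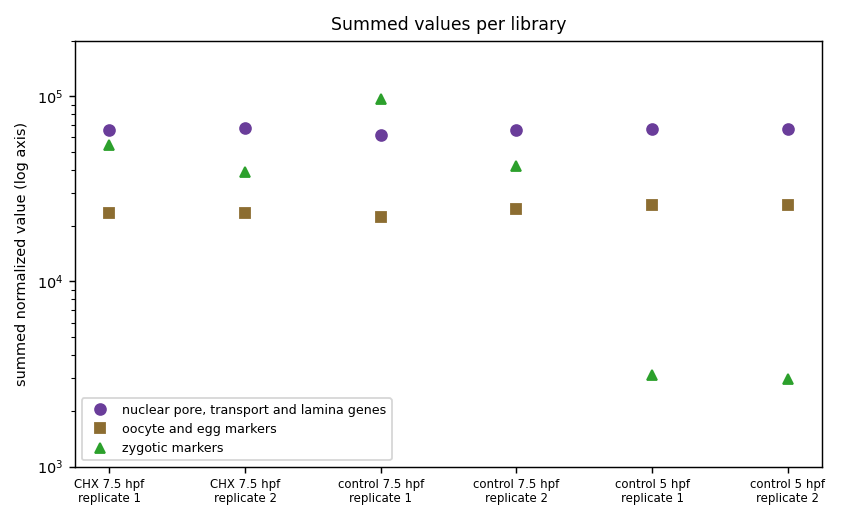
Summed normalized value per library (log axis) of the nuclear pore, transport and lamina genes, the oocyte and egg markers and the zygotic markers, for CHX 7.5 hpf, control 7.5 hpf and control 5 hpf, 1 point per library. The 94 genes lie between 62044 and 67746 in all 6 libraries, while the zygotic markers lie at 38952 or above in the CHX and control 7.5 hpf libraries and at 2988 and 3143 in the control 5 hpf libraries.

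Few of these transcripts were called different in any comparison. In controls at 7.5 hpf against 5 hpf, 1 of the 94 was called higher and none lower (limma, Benjamini-Hochberg adjusted p under 0.05), where 5.90% of the 19149 genes tested were called higher and 0.715% lower. Under CHX against control at 7.5 hpf none was called in either direction (background 0.198% higher and 0.355% lower), and none under CHX against control 5 hpf (5.75% higher and 0.256% lower). At an unadjusted p under 0.05 the counts in limma were 3 higher and 9 lower between the controls (background 12.8% and 6.44%), 5 higher and 2 lower for CHX against control at 7.5 hpf (4.59% and 3.64%), and 3 higher and 1 lower for CHX against control 5 hpf (12.1% and 3.79%).

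A missing call does not show that a level held, so the width of each interval matters. The 95% interval of the log2 difference lay inside -1 to 1, that is, inside a 2-fold change either way, for 71 of the 94 between the controls (37.8% of all genes tested), for 67 under CHX against control at 7.5 hpf (41.4%), and for 73 under CHX against control 5 hpf (40.3%). The median member had a mean value of 398 and the median gene 141. Among genes with a mean value of at least 100, a limit chosen after the values were seen, the counts were 71 of 84 members (64.0% of 11237 genes), 67 of 84 (70.1%) and 73 of 84 (68.1%). At that level 1 of 84 members was called higher between the controls (6.31% of genes), none for CHX against control at 7.5 hpf (0.303%) and none for CHX against control 5 hpf (5.85%). The difference from other genes was not tested.

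**Figure D2:**
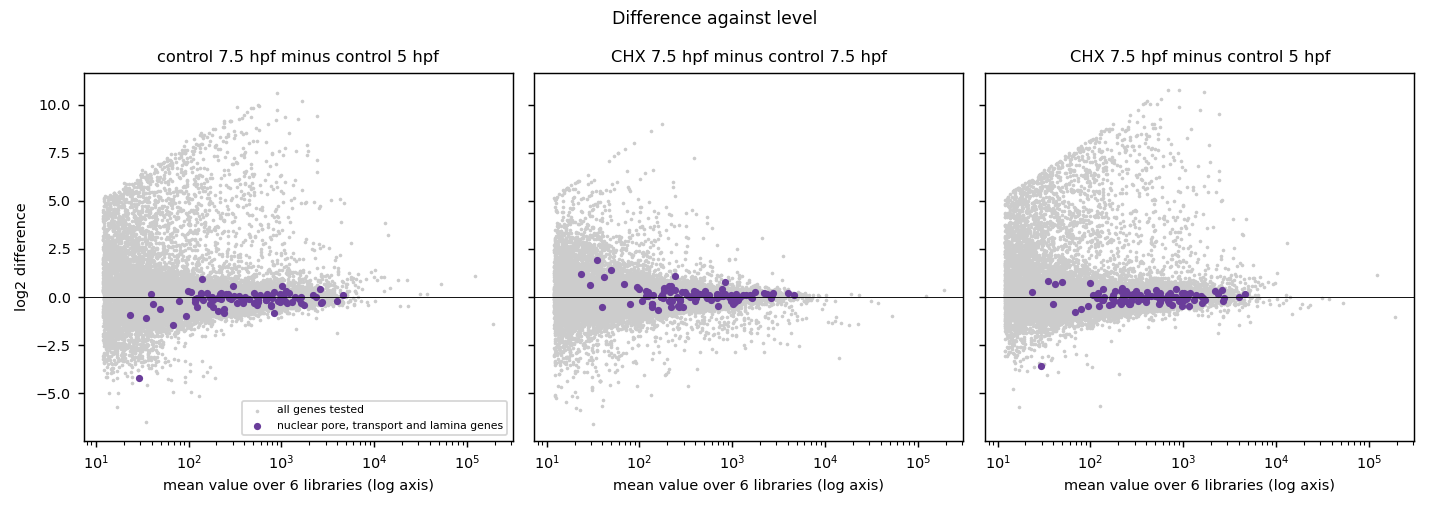
Log2 difference (vertical) against the mean value over 6 libraries (log axis) in the 3 comparisons, for all 19149 genes tested in grey and the nuclear pore, transport and lamina genes in purple. The purple points form a band around 0 that widens at low values; the grey points above 5 in the comparisons with control 5 hpf hold no member.

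The median log2 difference of the 94 was -0.07 in controls at 7.5 hpf over 5 hpf, against 0.03 for all genes tested. It was 0.08 for CHX over control at 7.5 hpf, against 0.02 for all genes, and -0.02 for CHX over control 5 hpf, against 0.02. The first of these changed sign with scaling: with libraries scaled on the oocyte markers the members stood at 0.11 and all genes at 0.21, and with libraries scaled on totals at -0.21 and -0.11. Without control 5 hpf replicate 1 they stood at 0.005 and 0.015, and without control 7.5 hpf replicate 1 at -0.085 and 0.057. The CHX median against 5 hpf was 0.15 with scaling on the oocyte markers, where all genes stood at 0.20. The CHX median against control at 7.5 hpf was 0.012 without control 7.5 hpf replicate 1 (all genes 0.001) and 0.138 without control 7.5 hpf replicate 2 (all genes -0.01). Between the controls, 26 members had both 7.5 hpf libraries below both 5 hpf libraries and 8 had both above (background 20.5% and 25.6%). Under CHX, 24 had both libraries above both 7.5 hpf controls and 15 both below (19.6% and 18.1%), and against control 5 hpf 19 lay above and 21 below (26.7% and 21.3%).

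**Figure D3:**
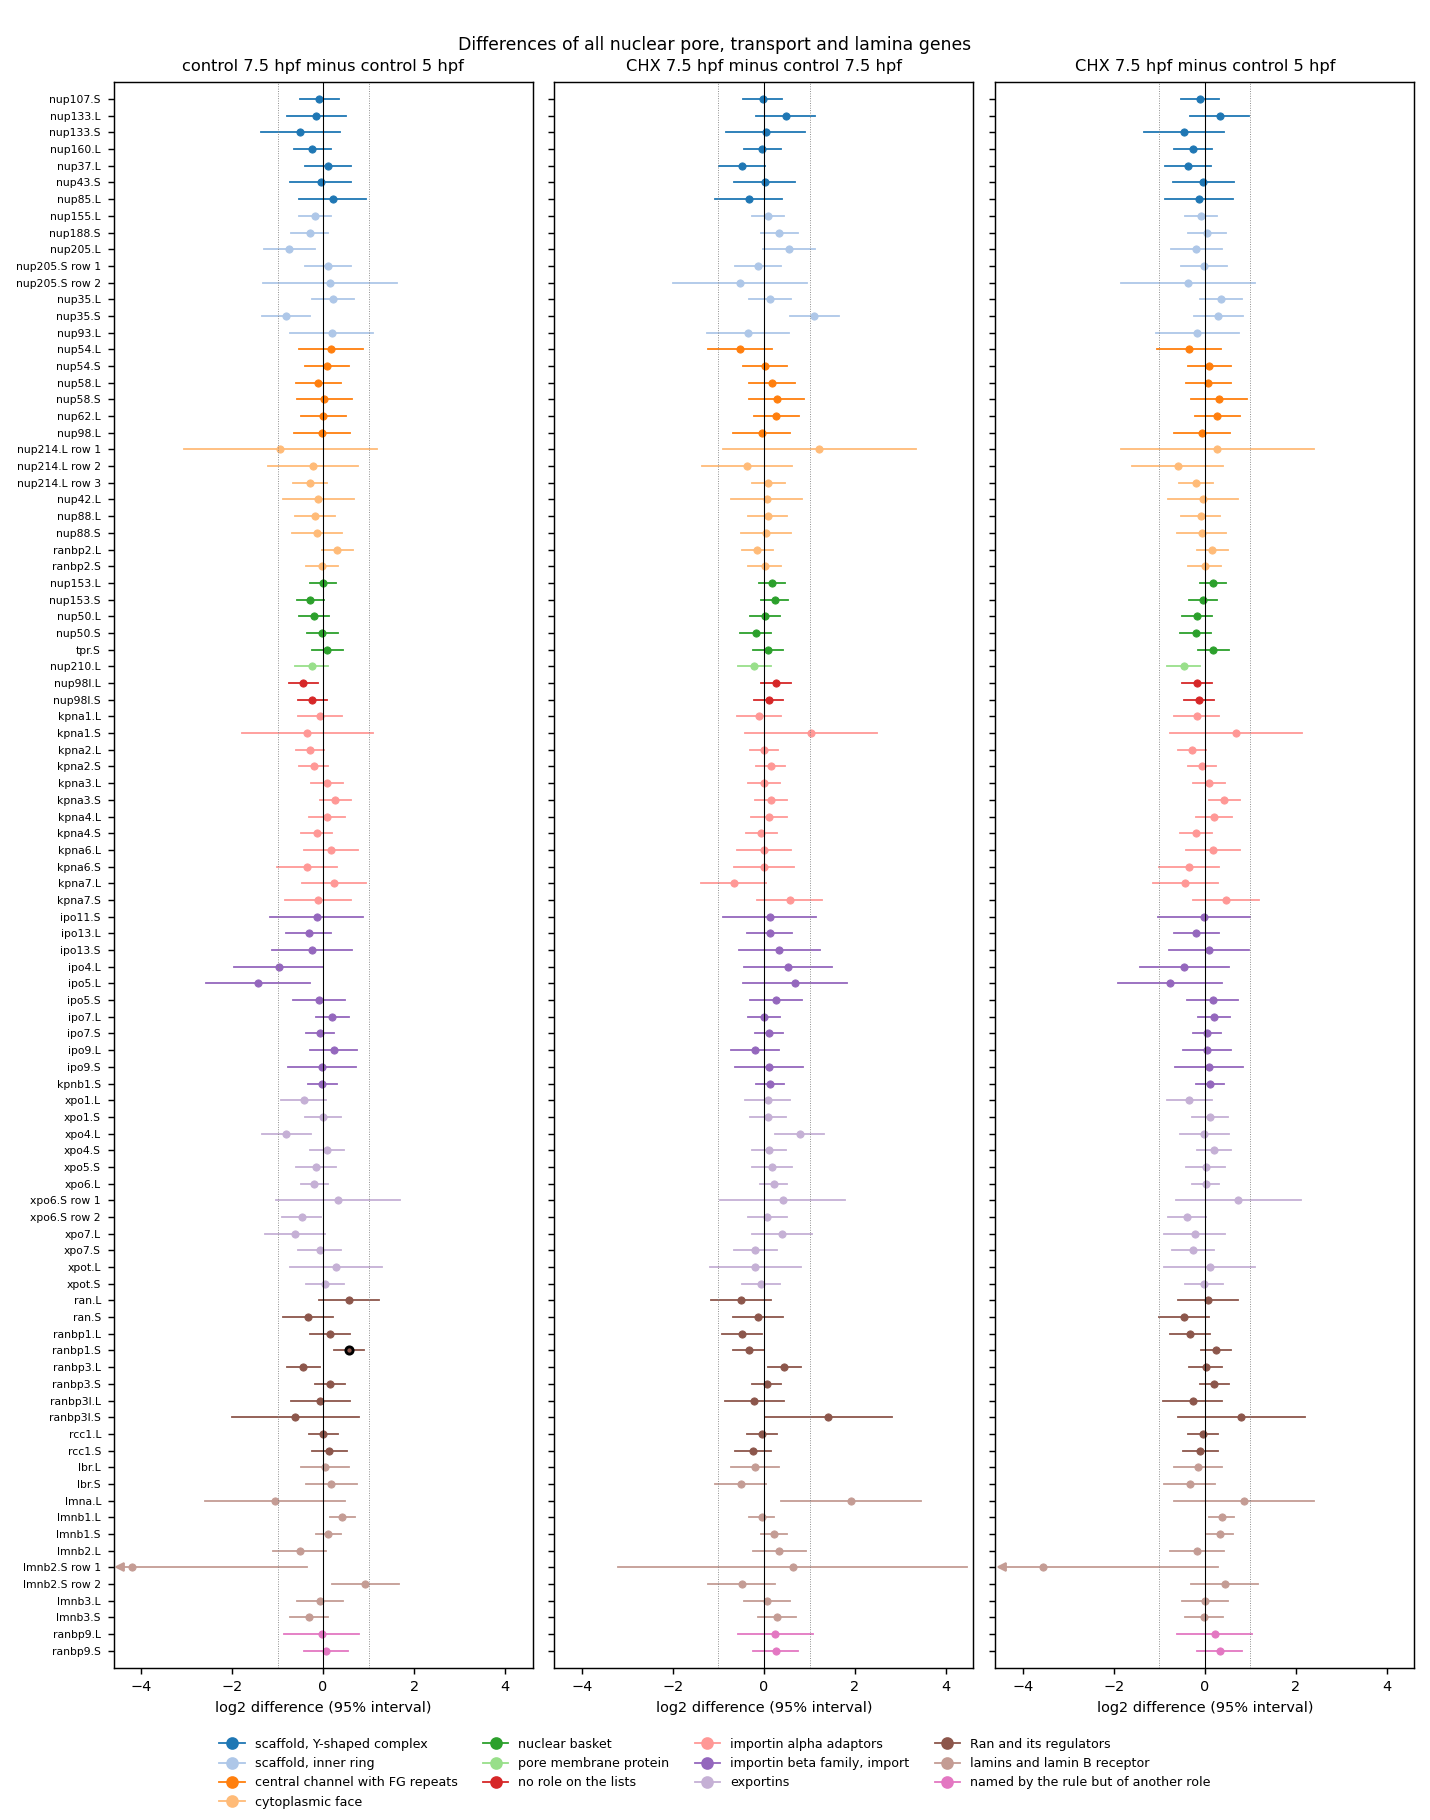
Log2 difference and 95% interval of each of the 94 genes in the 3 comparisons, coloured by role; dotted lines mark a 2-fold change either way, a black ring marks an adjusted p under 0.05, and an arrow marks an interval that runs past the axis. Only ranbp1.S between the controls carries a ring, and most intervals lie inside the dotted lines.

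Nucleoporins gave 37 of the 94 rows, and none was called in any comparison. The Y-shaped complex, the outer scaffold that is recruited early when a pore is built, had 7 rows. Its members lay between -0.50 (nup133.S) and 0.21 (nup85.L) on the log2 scale between the controls, and between -0.48 (nup37.L) and 0.48 (nup133.L) for CHX over control at 7.5 hpf. The row with its highest mean value, nup160.L, had 493 and 548 under CHX, 550 and 515 in 7.5 hpf controls and 546 and 716 in 5 hpf controls. Those ranges overlapped in each comparison.

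The inner ring, which anchors the channel to the scaffold, had 8 rows, among them the member with the smallest unadjusted p of the 94 for CHX over control at 7.5 hpf (nup35.S, 0.000863). nup35.S encodes a ring protein that binds the membrane. It had 316 and 319 under CHX, 139 and 155 in controls at 7.5 hpf and 282 and 236 in controls at 5 hpf. The 7.5 hpf controls were thus the lowest pair, with no overlap with either other group. The log2 difference was 1.11 for CHX over control at 7.5 hpf (95% interval 0.58 to 1.64, limma adjusted p = 0.107) and -0.81 between the controls (-1.34 to -0.28, adjusted p = 0.0799), neither of which passed. Its partner copy nup35.L had 613 and 525 under CHX, 597 and 449 in 7.5 hpf controls and 395 and 497 in 5 hpf controls, and the CHX and 7.5 hpf control values overlapped. nup205.L, another ring subunit named after its values were seen, had 244 and 199 under CHX, 155 and 145 in 7.5 hpf controls and 248 and 254 in 5 hpf controls. Its log2 differences were 0.55 for CHX over control (adjusted p = 0.614) and -0.74 between the controls (adjusted p = 0.132). A low row of the same gene, nup205.S row 2, lay between 25 and 58. Its log2 difference for CHX over control at 7.5 hpf was -0.53, the lowest of all nucleoporin rows and opposite in sign to that of nup205.L. nup155.L, with the highest mean value of the ring, lay between 853 and 1076 in all libraries.

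The central channel, whose phenylalanine-glycine (FG) repeats form the permeability barrier, had 6 rows. nup58.L had 425 and 515 under CHX, 337 and 507 in 7.5 hpf controls and 427 and 460 in 5 hpf controls. Between the controls all 6 log2 differences lay between -0.10 and 0.17, with every interval inside a 2-fold change, and for CHX over control nup54.L had the lowest, -0.53 (95% interval -1.23 to 0.18). nup98l.L, given no role here, had 1718 and 1798 under CHX, 1351 and 1594 in 7.5 hpf controls and 1822 and 2149 in 5 hpf controls. The 7.5 hpf controls were the lowest pair (log2 difference between the controls -0.43, 95% interval -0.76 to -0.10, limma adjusted p = 0.129).

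The cytoplasmic face, where export complexes come apart, had 8 rows. nup214.L row 3, with their highest mean value, had 2291 and 2966 under CHX, 2147 and 2759 in 7.5 hpf controls and 2919 and 3043 in 5 hpf controls. Both 7.5 hpf controls lay below both 5 hpf controls, with a log2 difference of -0.29 (95% interval -0.66 to 0.08). The low row nup214.L row 1, at 21 and 40 under CHX, 5 and 27 in 7.5 hpf controls and 22 and 26 in 5 hpf controls, had a log2 difference of 1.21 for CHX over control whose interval ran from -0.91 to 3.33. The value of 5 in control 7.5 hpf replicate 1 carried most of it: the difference was 0.10 without that library and 2.32 without control 7.5 hpf replicate 2. nup214.L row 2 lay between 53 and 109. All 5 rows of the nuclear basket, which hangs into the nucleus, had intervals inside a 2-fold change in all 3 comparisons. tpr.S, encoding its filament protein, had 5214 and 4606 under CHX, 4034 and 5256 in 7.5 hpf controls and 4140 and 4497 in 5 hpf controls. The pore membrane protein gene nup210.L had 736 and 895 under CHX, 912 and 971 in 7.5 hpf controls and 1022 and 1231 in 5 hpf controls, so the groups did not overlap. Its log2 difference for CHX over control 5 hpf was -0.47 (-0.83 to -0.10, adjusted p = 0.165), which did not pass.

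Importin alpha proteins bind the nuclear localization signal of a cargo and link it to importin beta. All 12 rows of the 6 genes were measured and none was called. kpna2 encodes the importin alpha of many Xenopus extract studies. kpna2.L had 1413 and 1592 under CHX, 1411 and 1596 in controls at 7.5 hpf and 1760 and 1905 in controls at 5 hpf. Both later groups lay below the 5 hpf pair and overlapped each other. The log2 difference was -0.29 in both comparisons with 5 hpf (95% interval -0.60 to 0.03 between the controls, adjusted p = 0.301, and -0.60 to 0.02 for CHX, adjusted p = 0.365). For CHX over control at 7.5 hpf the interval ran from -0.31 to 0.31. kpna2.S had 1165 and 1058 under CHX, 983 and 1027 in 7.5 hpf controls and 1139 and 1181 in 5 hpf controls.

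The kpna3 and kpna4 genes encode closely related importin alphas. kpna3.S had 967 and 921 under CHX, 793 and 907 in 7.5 hpf controls and 662 and 744 in 5 hpf controls, a rank order without overlap. Its log2 difference was 0.43 for CHX over control 5 hpf (95% interval 0.08 to 0.77), at an unadjusted p of 0.0204 and an adjusted p of 0.181, and did not pass. kpna3.L ranged from 929 to 1185 over the 6 libraries, kpna4.L from 579 to 783, and kpna4.S from 614 to 743. kpna1 and kpna6 belong to a further branch of the family: kpna1.L ranged from 257 to 318, kpna6.L from 201 to 312 and kpna6.S from 138 to 229. kpna1.S was low, with 66 and 51 under CHX, 31 and 25 in 7.5 hpf controls and 24 and 53 in 5 hpf controls, and its log2 difference of 1.03 for CHX over control had an interval from -0.41 to 2.47.

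kpna7 is known from mammals as the importin alpha of oocytes and early embryos. Its copies had differences of opposite sign for CHX over control. kpna7.L had 134 and 105 under CHX, 228 and 157 in 7.5 hpf controls and 150 and 171 in 5 hpf controls, while kpna7.S had 310 and 238 under CHX, 133 and 252 in 7.5 hpf controls and 205 and 190 in 5 hpf controls. The log2 difference for CHX over control was -0.67 for kpna7.L (95% interval -1.38 to 0.04) and 0.57 for kpna7.S (-0.15 to 1.28). The test of the L copy against the S copy gave -1.24 (-2.34 to -0.13, unadjusted p = 0.0313, adjusted p = 0.849) and did not pass.

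**Figure D4:**
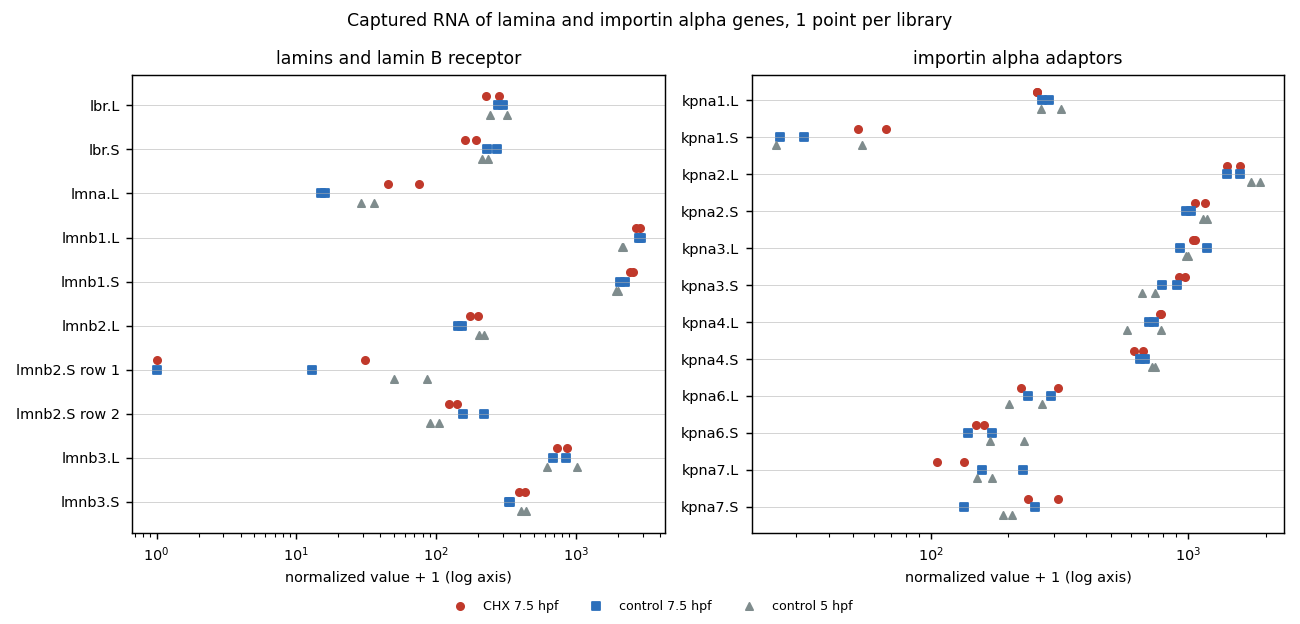
Normalized value plus 1 (log axis) of each lamin and lamin B receptor row (left) and each importin alpha row (right), 1 point per library for CHX 7.5 hpf, control 7.5 hpf and control 5 hpf. lmnb1.L shows both later pairs above the 5 hpf pair, lmna.L lies at 75 or below, and lmnb2.S row 1 reaches 0 in 2 libraries.

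Importin beta and its relatives carry cargo directly through the channel. Of their 11 rows none was called. The single kpnb1 row, kpnb1.S, which encodes importin beta itself, had 1431 and 1506 under CHX, 1231 and 1463 in 7.5 hpf controls and 1351 and 1370 in 5 hpf controls. Its CHX pair lay above the 5 hpf pair by a log2 difference of 0.11 (95% interval -0.21 to 0.43), and the other pairs overlapped. ipo7.S, with the highest mean value here, had 1488 and 1723 under CHX, 1510 and 1445 in 7.5 hpf controls and 1482 and 1629 in 5 hpf controls, and its groups overlapped.

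The lowest difference among the importins was that of ipo5.L, whose product imports ribosomal proteins and histones. It had 51 and 71 under CHX, 45 and 31 in controls at 7.5 hpf and 130 and 81 in controls at 5 hpf, so both later groups lay below the 5 hpf pair. The log2 difference between the controls was -1.43 (95% interval -2.58 to -0.29, adjusted p = 0.151), and the S copy, ipo5.S, had -0.09 (-0.65 to 0.48). ipo4.L, which encodes another histone importer, had 70 and 119 under CHX, 51 and 78 in 7.5 hpf controls and 115 and 136 in 5 hpf controls (log2 difference between the controls -0.98, adjusted p = 0.26). Neither passed.

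Exportins leave the nucleus with cargo and Ran bound to GTP. Between the controls 5 of their 12 rows had both 7.5 hpf libraries below both 5 hpf libraries and none above (background 20.5% and 25.6%), and none was called. This was not particular to exportins. The inner ring had 4 of 8 rows below and 0 above, the lamina 4 of 10 below and 3 above, and the whole set 26 of 94 below and 8 above. xpo4.L, which encodes the exporter of the translation factor eIF5A, had 926 and 974 under CHX, 406 and 747 in controls at 7.5 hpf and 968 and 956 in controls at 5 hpf. The low value belonged to control 7.5 hpf replicate 1. The log2 difference was 0.79 for CHX over control (95% interval 0.25 to 1.32, adjusted p = 0.351) and -0.80 between the controls (-1.34 to -0.27, adjusted p = 0.0864). Without control 7.5 hpf replicate 2 they were 1.22 and -1.24, and the remaining 7.5 hpf control is then the low library alone. With control 7.5 hpf replicate 1 left out instead, the remaining value is 747. That value lies nearer the other groups, so both differences are then smaller in size. xpo4.S, in contrast, ranged from 507 to 607.

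xpo6.L encodes the exporter of actin and had 3900 and 4567 under CHX, 3426 and 3852 in 7.5 hpf controls and 4188 and 4129 in 5 hpf controls. xpo1 encodes the main exporter of proteins with a leucine-rich signal. xpo1.S ranged from 584 to 779, and xpo1.L had 429 and 605 under CHX, 419 and 553 in 7.5 hpf controls and 585 and 716 in 5 hpf controls. xpo6.S row 1 lay between 42 and 153, and xpo6.S row 2 had a log2 difference of -0.47 between the controls (95% interval -0.89 to -0.05, adjusted p = 0.201).

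The 1 call of the set fell in the Ran group, in which 10 rows were measured. ranbp1.S encodes a Ran-binding protein that helps RanGAP1 release Ran from transport complexes in the cytoplasm. It had 1041 and 931 under CHX, 1204 and 1284 in controls at 7.5 hpf and 781 and 891 in controls at 5 hpf. The groups did not overlap, and the CHX pair lay between the others. It rose 1.49-fold in controls at 7.5 hpf over 5 hpf (log2 difference 0.58, 95% interval 0.24 to 0.91, limma adjusted p = 0.0479). The call was at the threshold: among other settings, it was lost with libraries scaled on totals (0.149) or trimmed means (0.0704), at a pseudocount of 0.5 (0.0506), and whichever of the 6 libraries was left out (0.0938 to 0.283). For CHX over control at 7.5 hpf the log2 difference was -0.34 (-0.669 to -0.0036, adjusted p = 0.601).

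ranbp1.L had 492 and 666 under CHX, 735 and 866 in controls at 7.5 hpf and 642 and 798 in controls at 5 hpf. The CHX pair lay below the 7.5 hpf pair, with a log2 difference of -0.48 (95% interval -0.92 to -0.04, adjusted p = 0.559), and the 2 control pairs overlapped. ranbp3 encodes a cofactor of Xpo1. ranbp3.L had 859 and 867 under CHX, 697 and 575 in 7.5 hpf controls and 883 and 825 in 5 hpf controls. The log2 difference was 0.45 for CHX over control (limma adjusted p = 0.477) and -0.43 between the controls (adjusted p = 0.167). The 7.5 hpf controls, the lowest pair here, enter both differences. How many genes shared this order, among the members or all genes, was not counted. ranbp3l.S, a low row, had 84 and 67 under CHX, 19 and 40 in 7.5 hpf controls and 57 and 32 in 5 hpf controls.

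For Ran itself the copies differed in order. ran.L had 277 and 245 under CHX, 433 and 316 in 7.5 hpf controls and 332 and 185 in 5 hpf controls, and ran.S had 1088 and 901 under CHX, 1326 and 883 in 7.5 hpf controls and 1719 and 1071 in 5 hpf controls. In all 3 groups replicate 1 was the higher library for both copies. The log2 difference between the controls was 0.58 for ran.L (95% interval -0.08 to 1.24) and -0.33 for ran.S (-0.87 to 0.22). rcc1.L, encoding the chromatin-bound exchange factor, had 1689 and 1488 under CHX, 1797 and 1488 in 7.5 hpf controls and 1668 and 1584 in 5 hpf controls. Its log2 difference was between -0.04 and 0.01 in the 3 comparisons. ranbp9, which shares the name but encodes a scaffold of an E3 ubiquitin ligase complex, had 2 rows and no call, with 335 and 369 for ranbp9.S under CHX, 270 and 322 in 7.5 hpf controls and 255 and 310 in 5 hpf controls.

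The lamina had 10 rows. lmnb1 encodes lamin B1. lmnb1.L had 2890 and 2683 under CHX, 2843 and 2912 in controls at 7.5 hpf and 2137 and 2166 in controls at 5 hpf. Both later pairs lay above the 5 hpf pair and overlapped each other. The log2 difference was 0.42 between the controls (95% interval 0.14 to 0.69, adjusted p = 0.0788), 0.37 for CHX over control 5 hpf (0.10 to 0.65, adjusted p = 0.134) and -0.05 for CHX over control at 7.5 hpf (-0.32 to 0.23). None passed as deposited. The first passed with libraries scaled on the oocyte markers (0.60, limma adjusted p = 0.0392). That scaling moved the median of all genes between the controls from 0.03 to 0.21. lmnb1.S had 2555 and 2444 under CHX, 2070 and 2235 in 7.5 hpf controls and 2015 and 1946 in 5 hpf controls, with no overlap between groups. Its log2 difference was 0.34 for CHX over control 5 hpf (0.06 to 0.62, adjusted p = 0.198).

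lmnb3 encodes lamin LIII, the main lamin of the Xenopus oocyte and egg. lmnb3.L had 728 and 861 under CHX, 681 and 843 in 7.5 hpf controls and 1010 and 624 in 5 hpf controls, with overlap in each comparison. lmnb3.S had 431 and 394 under CHX, 332 and 339 in 7.5 hpf controls and 401 and 437 in 5 hpf controls. Both 7.5 hpf controls lay below the other pairs, by log2 differences of 0.30 for CHX over control (95% interval -0.12 to 0.71) and -0.32 between the controls (-0.735 to 0.10). Neither passed.

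lmnb2, encoding lamin B2, was listed in 3 rows that did not move together. lmnb2.L had 199 and 175 under CHX, 152 and 143 in 7.5 hpf controls and 203 and 220 in 5 hpf controls. lmnb2.S row 2 had 123 and 139 under CHX, 219 and 155 in 7.5 hpf controls and 89 and 104 in 5 hpf controls, a log2 difference of 0.93 between the controls (95% interval 0.20 to 1.67, adjusted p = 0.147). lmnb2.S row 1 had 0 and 30 under CHX, 0 and 12 in 7.5 hpf controls and 85 and 49 in 5 hpf controls. Its log2 differences, the lowest of the 94 members, were -4.18 between the controls and -3.56 for CHX over control 5 hpf. Both rest on a value of 0 in 1 library of the later pair. As libraries were left out in turn, the difference between the controls ran from -6.04 to -2.33. That for CHX over control 5 hpf ran from -6.04 to -1.08. The S rows carry the same name, the 7.5 hpf controls lay above the 5 hpf controls in one and below in the other, and the sources used here do not say how reads were divided between them. No row passed in any comparison.

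lmna.L encodes lamin A, which is made later in Xenopus development. It was low throughout, with 75 and 44 under CHX, 15 and 14 in controls at 7.5 hpf and 28 and 35 in controls at 5 hpf. Its log2 difference of 1.92 for CHX over control was the highest of the 94 in that comparison, with an interval from 0.38 to 3.46 and an adjusted p of 0.48. Gaps between low values gave an estimate of what a single read stood for. It was about 0.685 units in CHX replicate 1 and 1.18 and 0.648 units in the 7.5 hpf controls. In the 5 hpf controls it was 1.85 and 2.31 units. The control levels thus rest on few reads. By these estimates, a given value of any gene rests on fewer reads at 5 hpf than in those later libraries. That limit holds for every comparison with control 5 hpf, the calls of ranbp1.S and of fntb.S (below) included. No firm estimate was had for CHX replicate 2. The lamin B receptor gene lbr, whose product ties the lamina and chromatin to the inner membrane, had for lbr.S 192 and 160 under CHX, 272 and 231 in 7.5 hpf controls and 211 and 233 in 5 hpf controls. The CHX pair was lowest, with a log2 difference of -0.51 for CHX over control (-1.07 to 0.05, adjusted p = 0.635). lbr.L ranged from 227 to 322.

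Whether L and S copies of 1 gene changed by different amounts was tested over 4747 pairs with both measured and each name listed once. Of these, 32 were pairs of the genes described here. Genes with a repeated row name, among them lmnb2, xpo6 and nup205, were left out. None of the 32 was called in any comparison (limma on the log2 ratio of L to S, adjusted over all pairs; background 1.62% between the controls, 0% for CHX over control at 7.5 hpf and 1.66% for CHX over control 5 hpf). At an unadjusted p under 0.05 there were 6, 4 and 2 of the 32 (12.8%, 5.39% and 9.21% of all pairs). The smallest p belonged to ran between the controls, where the L copy changed by 0.90 more than the S copy on the log2 scale (95% interval 0.40 to 1.40, adjusted p = 0.0762). xpo4 followed with -0.88 (-1.43 to -0.34, adjusted p = 0.119) and nup35 with 1.03 (0.30 to 1.76, adjusted p = 0.2). For CHX over control at 7.5 hpf nup35 had -0.98 (-1.71 to -0.25, adjusted p = 0.849). The 7.5 hpf controls enter both of these comparisons. Reads that both copies share could be divided either way.

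**Figure D5:**
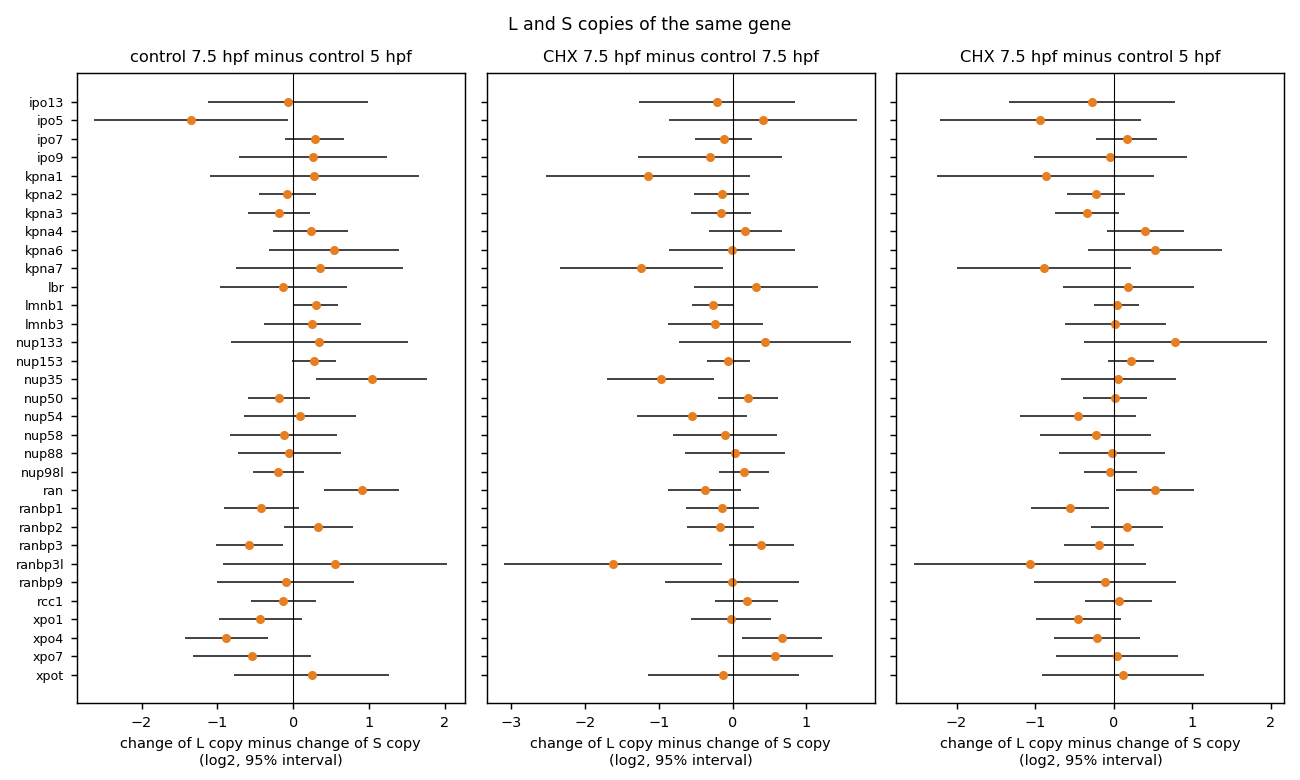
Change of the L copy minus change of the S copy (log2, with 95% interval) for the 32 pairs in the 3 comparisons. Most intervals cross 0; between the controls ran, nup35 and lmnb1 lie to the right of it and xpo4, ranbp3 and ipo5 to the left, and no pair passed the test.

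Further genes of the same machinery that the name rule did not reach were read from 3 lists. Of 96 rows tested, 2 rose and none fell between the controls (5.90% and 0.715% of all genes tested). None was called for CHX over control at 7.5 hpf (0.198% higher and 0.355% lower). For CHX over control 5 hpf, 1 rose and none fell (5.75% and 0.256%). The gene fntb encodes the beta subunit of the farnesyltransferase that attaches the lipid anchor of B-type lamins. Its copies went opposite ways for CHX over control 5 hpf. There fntb.L had a log2 difference of -1.07, the lowest of 47 rows of other inner membrane and lamina-binding proteins, and was not called. The called copy, fntb.S, had 516 and 509 under CHX, 511 and 589 in controls at 7.5 hpf and 233 and 321 in controls at 5 hpf. Both later pairs lay above the 5 hpf pair, and it rose by a log2 difference of 1.00 between the controls (95% interval 0.54 to 1.47, adjusted p = 0.0159) and 0.90 for CHX over control 5 hpf (0.44 to 1.37, adjusted p = 0.0284). Without control 5 hpf replicate 1, these were 0.77 (adjusted p = 0.141) and 0.67 (0.228), and the first call held only without control 5 hpf replicate 2 among the libraries left out in turn. The call between the controls was also lost with no filter on low values (0.0631), no intensity trend (0.153) and only the 2 groups compared (0.0792). The call for CHX over control 5 hpf was also lost without CHX replicate 1 (0.319) or CHX replicate 2 (0.222), with scaling on totals (0.0598), no filter (0.0901) and no trend (0.200).

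By list, 0 of 18 rows of other nucleoporins and pore-associated proteins rose between the controls, where 5.90% of all genes tested rose. The counts in the same comparison were 1 of 31 rows of other transport receptors, adaptors and Ran regulators, and 1 of 47 rows of other inner membrane and lamina-binding proteins. The median log2 difference of the 96 rows was -0.003 between the controls, -0.04 for CHX over control at 7.5 hpf and -0.01 for CHX over control 5 hpf.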

How the data were processed

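Values were taken from 1 table of 6 libraries of EU-captured RNA (2 per group). Per the submitters' processing notes, the authors used Salmon 0.12.0 and DESeq2; the genome build, the annotation and whether counting used strand are not stated in the sources used here. What the authors deposited was treated as a score: gene-level counts divided by a size factor per library and rounded by the authors, since totals are close and low values skip whole numbers. Recomputed median-of-ratios factors were 1.00 in every library. The plan's test for normalized values was therefore used in place of a count test: log2(value + 1), limma 3.58.1 in R 4.3.3, a model of 3 groups with an intensity trend (3 residual and 7.35 prior degrees of freedom), Benjamini-Hochberg over 19149 genes with a mean of at least 12. Differences and their 95% intervals come from this fit; adding 1 before the log understates changes of low genes. L and S copies were compared as log2 ratios over 4747 pairs, without names that repeat. The test was also run on simulated data with known changes, 1 draw per comparison. The simulated spread was the same in every group and for all genes of the same level, so it lacked the gene-to-gene spread of these data. The share of false calls in the simulated data thus need not hold for the real test. It was above the nominal 0.05 between the controls and for L against S copies. It was below 0.05 in both CHX comparisons. With 1 draw each, these differences between comparisons cannot be told from variation between draws. Members, lists and roles were chosen with earlier results of these data known. Named were the called genes, the 4 highest and 4 lowest differences per comparison, the row of each role with the highest mean value, all lamins, lbr and importin alphas, and called genes of the 3 other lists, 1 of which is counted but not reported here; a few others were named after their values were seen, among them nup205.L, ranbp1.L, ranbp3.L, kpnb1.S, xpo1, lowest-p copy pairs and partner copies. Levels are compared within a gene only, since transcript lengths were not used; a highest mean value is per gene, not per length. Symbols of 93 of the 94 rows were found in RefSeq's Xenopus_laevis_v10.1 gene table. Figures used Python 3.11.15 and matplotlib 3.10.9. Rescaling, pseudocounts, filters, variance models, 2-group fits, a replicate block and leaving out each library were tried as alternatives.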

Additional observations from a re-analysis of the deposited data

How the results depend on the processing

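The count of nuclear pore, transport and lamina genes called higher in controls at 7.5 hpf over 5 hpf was 1 as reported and 0 when scaled on totals or trimmed means, at a pseudocount of 0.5, with no filter on low values, with no intensity trend, with library weights, and with only the 2 groups compared; it was 2 when scaled on oocyte transcripts. Leaving out a library in turn, with the lone library left assumed to vary like the other groups, gave 0 to 0 higher and 0 to 1 lower there. For CHX over control at 7.5 hpf it gave 0 to 1 higher, and for the L copy against the S copy between the controls 0 to 1; each 1 came without control 7.5 hpf replicate 2. With the replicate number as a block, 1 was lower between the controls (xpo4.L, adjusted p = 0.0335) in place of 0, and the 1 higher was still ranbp1.S (0.0360). The deviations of same-numbered libraries correlated at 0.008, -0.02 and 0.13 over genes; no label links the numbers, and they were not taken as pairs. The other counts of members did not move, and no called gene changed sign under any alternative run. At a minimum mean of 50, 88 of the 94 genes were tested. Over all genes, 137 were called lower between the controls and 1129 higher; as libraries were left out these ran from 14 to 654 and from 488 to 1345, with 628 higher without the filter, 627 without the trend and 598 with 2 groups. Over all alternatives, genes called for CHX over control at 7.5 hpf ran from 0 to 109 higher (38 as reported) and 0 to 111 lower (68), and for CHX over control 5 hpf from 78 to 1527 higher (1101) and 1 to 174 lower (49). The causes were not tested.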
